A study of Mus musculus with 8 samples.

Results

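Amino acid transporter genes were followed across enamel formation in the first molars of wild type C57BL/6 mice, between postnatal day 5 (P5), the secretory stage, and day 12 (P12), the maturation stage. The 10 genes are Slc6a14, which was selected on its large rise at P12 in these same libraries, and 9 further transporters chosen by name, Slc3a2, Slc7a5, Slc7a11, Slc7a1, Slc7a2, Slc38a1, Slc38a2, Slc1a5 and Slc1a4. They are 10 of the 54532 genes in the deposited table, and all 10 passed the filter on low counts that 16440 genes passed. Enamel organ RNA was prepared from molars freed of pulp tissue, captured by poly(A) and sequenced, with 4 libraries at each age and the molars of 5 pups pooled in each. The animals were untreated and of genotype wt at both ages. Library totals ran from 16574548 to 20262601 reads counted at P5, and at P12 they ran from 17588152 to 22013456. P-values measure the spread between these pools.

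Amino acid transporters of the plasma membrane fall into families that differ in what drives them. Members of the Slc6, Slc38 and Slc1 families use the sodium gradient to load cells with amino acids, while the heteromeric exchangers, made of the heavy chain Slc3a2 and a light chain of the Slc7 family, swap an amino acid inside the cell for one outside. Secretory ameloblasts export large amounts of amelogenin, ameloblastin and enamelin. Maturation ameloblasts take part in removing the digested matrix and in moving ions, and the ruffle-ended form has a much folded apical membrane.

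Markers were checked before the transporters were read. The 4 secretory ameloblast markers (Amelx, Ambn, Enam and Mmp20) all fell, from a summed normalized count of 4966600 to 5580300 at P5 to 237040 to 621680 at P12. Per kilobase of exon, Amelx was the most abundant of them at P5 and Ambn at P12. The 5 maturation markers (Klk4, Amtn, Odam, Slc24a4 and Wdr72) all rose, from 12880 to 44228 up to 356960 to 482560, and per kilobase Amtn led at P5 and Odam at P12. The normalized count is the read count divided by the library's effective size and multiplied by the mean effective size. The libraries were not purely epithelial: the 6 markers of mesenchyme, odontoblasts and bone, of which Col1a1 led per kilobase at both ages, summed to 1025900 to 1222700 at P5 and 896240 to 1160100 at P12. In bulk tissue, fewer cells of a type and less RNA per cell cannot be told apart.

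A library at each age stood apart. P12 replicate 4 held the highest or the lowest of the 4 P12 values for 67.7% of the genes tested, and P5 replicate 5 did so among the P5 libraries for 61.8%. In P12 replicate 4 the 8 markers of oral stratified epithelium summed to 12399, against 50920, 61980 and 40639 in replicates 1 to 3, while the secretory ameloblast markers summed to 621680, against 237040, 264280 and 433630. In P5 replicate 5 the maturation markers summed to 12880, against 36789 to 44228 in the other P5 libraries. All 10 transporters had their highest or lowest P12 value in P12 replicate 4, and 8 of 10 had their highest or lowest P5 value in P5 replicate 5. Results that change without these libraries are given both ways.

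Across the genome, 9411 of the 16440 genes tested (57.2%) had an adjusted p under 0.05 in edgeR's quasi-likelihood test, 4735 of them higher at P12 (28.8%) and 4676 lower (28.4%). Of the 9 transporters chosen by name, 3 rose, 2 fell and 4 did not pass, so that the share that passed, 5 of 9, is near that of all genes. The median log2 fold change of the 9 was -0.13, beside 0.01 over all genes tested. Amelx, Ambn and Enam alone took 23.0% to 25.4% of each P5 library and 1.45% to 3.49% of each P12 library. With scaling by total count instead of TMM, the median over all genes moved from 0.01 to 0.38 and 79.2% of the calls were rises, against 50.3% with TMM. Under that scaling the small negative changes of Slc7a11, Slc38a1 and Slc38a2 turned positive and Slc7a5 no longer passed.

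**Figure D1:**
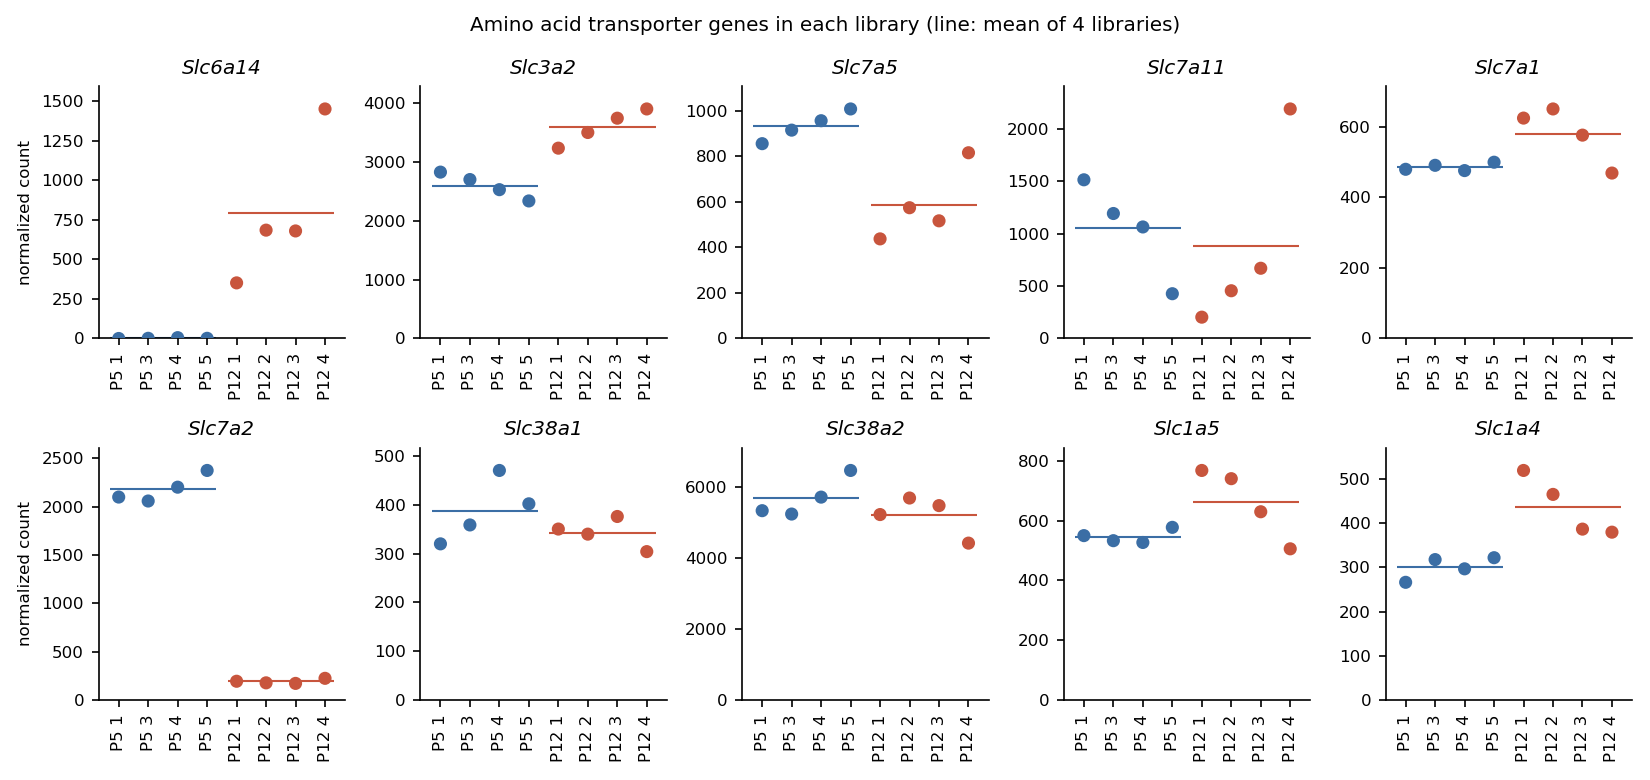
Normalized count (y axis, linear from 0) of the 10 transporter genes in each of the 8 libraries (x axis, age and replicate number). Slc6a14 runs from 0 to 5.27 at P5, then from 351 to 1450 at P12, while Slc7a2 runs from 2057 to 2373 at P5, then from 171 to 224 at P12.

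Slc6a14 encodes a sodium- and chloride-coupled carrier that concentrates a broad range of neutral and cationic amino acids. Its gene (ENSMUSG00000031089) lies on the forward strand of the X chromosome of GRCm38, at 21714896 to 21742355, and it shares no exonic base (0.0%) with any other annotated gene. The read counts were 0, 1, 4 and 1 in P5 replicates 1, 3, 4 and 5, and 479, 811, 733 and 1444 in P12 replicates 1 to 4. Scaled to normalized counts, the P5 values become 0, 1.12, 5.27 and 1.06, and those of P12 become 351, 684, 679 and 1450. The gene was thus close to the floor in every P5 library, where 3 counts correspond to 3.18 to 3.95 normalized counts, and well expressed in every P12 library. Over the summed counts of 6 and 3467, the scaled ratio of P12 to P5 was 422, with an exact 95% interval of 194 to 1150 that covers counting error only. The ratio was 978 without P5 replicate 4, which held 4 of the 6 P5 counts, and 313 without P12 replicate 4. No test is given for Slc6a14, because its rise chose it; its fitted fold change ranked 3 among the genes tested.

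Slc6a14 also varied among the P12 libraries. Its highest P12 value was 4.13 times its lowest, and replicate 4 was 2.54 times the mean of the other replicates. The same ratio of replicate 4 to the others was 1.99 for the summed secretory ameloblast markers, 1.15 for the maturation markers, 0.242 for the oral epithelium markers and 0.492 for the osteoclast markers. Odam, the largest part of the maturation sum, was highest in replicate 2 (290679, 365229, 357994 and 346241 in replicates 1 to 4). Klk4, Amtn, Slc24a4 and Wdr72 were each highest in replicate 4. Of the secretory markers, Ambn and Mmp20 were lowest in replicate 1, but Amelx (24448, 23064, 58081 and 96613 in replicate order) and Enam were lowest in replicate 2. Each was highest in replicate 4. Slc6a14 was therefore highest in the P12 library with the most ameloblast marker RNA and the least oral keratin RNA. It was lowest in replicate 1, where both ameloblast sums were lowest. The summed skeletal muscle markers were also lowest in replicate 1 and highest in replicate 4 (677, 936, 945 and 1451 in replicate order). That order came from Myh4 (372, 550, 572 and 1111), since Acta1, Ckm, Tnnt3 and Mylpf each peaked in replicate 2 or 3. The part of tissue composition in this spread was not tested. Markers of gland-like secretory epithelium were too low for any of the 6 to be tested, with sums of 5.59 to 18.5 at P5 and 6.02 to 121 at P12. Bpifa1 led per kilobase at both ages, with 82.7 normalized counts in P12 replicate 2 and 0 in replicate 4, and Smr3a had no count in any library.

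The nearest genes on the chromosome that passed the filter did not share the size of this change. Zfp300, 0.625 Mb before Slc6a14, had 9.23 to 24.4 normalized counts at P5 and 19.1 to 33.0 at P12 (log2 fold change 0.88, SE 0.34, adjusted p = 0.045). Klhl13, 1.48 Mb after it, fell from 887 to 985 down to 417 to 462 (log2 fold change -1.09, SE 0.07, adjusted p = 1.4e-07). The 1 annotated gene that overlaps Slc6a14 had 0 counts in all libraries.

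Likeness to Slc6a14 was measured as the mean absolute difference between centred log2(normalized count + 1) values over the 8 libraries, among 11344 other genes with a mean of at least 100. The measure includes the step between the ages, which chose Slc6a14, as well as differences among the libraries of an age. The 5 nearest were Akr1c18 (0.78), Tex11 (0.82), Gm17660 (0.86), Slc15a1 (0.96) and Myom3 (1.05). Their mean normalized counts went from 5.83 ± 2.84 (SD, n = 4) to 5528 ± 1165 for Akr1c18, an aldo-keto reductase that acts on progesterone, and from 1.57 ± 1.27 to 314 ± 39.1 for Tex11. Myom3, a muscle M-band protein gene, went from 7.32 ± 3.47 to 570 ± 80.7, and Gm17660, which shares 41.0% of its exonic bases with the same-strand gene Gm43333, from 42.6 ± 16.5 to 7468 ± 2336. With a pseudocount of 5, Slc15a1 came nearest (0.52), Tex11 and Myom3 stayed among the 5, and Slc34a2 and Anxa8 took the places of Akr1c18 and Gm17660. Slc15a1 is itself a nutrient carrier, the proton-coupled transporter of di- and tripeptides. Within P12, Akr1c18 and Slc15a1 were lowest in replicate 1 and highest in replicate 4, as Slc6a14 was. Tex11 and Myom3 were highest in replicate 3, and Gm17660 was lowest in replicate 4.

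The promoter of Slc6a14 is shown because no other member changed as it did. The 120 bases before its RefSeq start are at chrX:21714780-21714899 on the forward strand of GRCm38.p6.
Slc6a14: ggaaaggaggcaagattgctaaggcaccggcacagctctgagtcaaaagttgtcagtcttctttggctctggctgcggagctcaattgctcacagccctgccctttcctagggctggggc
No capitals appear, since none of 4 motifs searched on both strands (TGATGNAA, TGACGTCA, TGACNNNGC and TATAAA) matched between 250 bases before and 50 after the start. G and C made up 56.7% of the 120 bases. The absence of these letters says nothing about other sites or other regions.

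Slc3a2, the CD98 heavy chain that carries the light chains to the membrane, rose moderately. Its normalized counts were 2831, 2704, 2532 and 2340 in P5 replicates 1, 3, 4 and 5 and 3238, 3505, 3748 and 3906 in P12 replicates 1 to 4. Every P12 library was above every P5 library, which was true in one direction or the other of 52.5% of the genes tested. The mean went from 2602 ± 213 (SD, n = 4) to 3599 ± 292, a log2 fold change of 0.47 (SE 0.08, adjusted p = 0.00043). Its gene lies on chromosome 19, at 8706882 to 8723369 on the reverse strand.

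Slc7a5, the light chain of the leucine-preferring system L exchanger, moved the other way. It had 856, 916, 957 and 1009 normalized counts at P5 and 438, 575, 517 and 816 at P12. All P12 libraries were below all P5 libraries, replicate 4 least so. The log2 fold change was -0.68 (SE 0.16, adjusted p = 0.0033), and -0.88 (adjusted p = 4.3e-06) without P12 replicate 4. With scaling by total count it was -0.31 (adjusted p = 0.067). The ratio of Slc7a5 to Slc3a2 within a library, which no scaling can move, had a log2 value of -1.48 ± 0.22 (SD, n = 4) at P5 and -2.65 ± 0.29 at P12. It was lower in all P12 libraries than in any P5 library (two-sided exact permutation p = 0.0286, the smallest that 4 against 4 libraries allow, and 0.0572 after Benjamini-Hochberg adjustment over 6 ratios). The gene is on chromosome 8, at 121881150 to 121907694 on the reverse strand.

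Slc7a11 encodes xCT, the light chain that takes up cystine in exchange for glutamate and so feeds glutathione synthesis. Its normalized counts were 1512, 1191, 1062 and 427 in P5 replicates 1, 3, 4 and 5 and 203, 455, 669 and 2187 in P12 replicates 1 to 4. The ages overlapped fully: the lowest value was in P12 replicate 1 and the highest in P12 replicate 4. The low P5 value and the high P12 value are those of the libraries that stood apart. Over all 8 libraries the log2 fold change was -0.26 (SE 0.59, adjusted p = 0.73). Without P12 replicate 4 it was -1.26 (adjusted p = 0.014), and without both distant libraries, a choice made after the values were seen, it was -1.52 (adjusted p = 0.00029). It was 0.07 (adjusted p = 0.92) without P12 replicate 1. The log2 ratio of Slc7a11 to Slc3a2 was -1.45 ± 0.69 at P5 and -2.56 ± 1.31 at P12 (exact permutation p = 0.229, adjusted 0.344), and that of Slc7a5 to Slc7a11 was -0.03 ± 0.89 and -0.09 ± 1.07 (exact permutation p = 0.914, adjusted 0.914). The direction of Slc7a11 between the ages thus rested on single pools. Replicate 4 was 4.94 times the mean of the other P12 libraries, a larger excess than that of Slc6a14.

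The Slc7a11 gene spans chromosome 3 from 49892526 to 50443614 on the reverse strand, and its promoter is shown for its pair of response element cores. The 120 bases before the RefSeq start are at chr3:50443614-50443733, reverse strand of GRCm38.p6, and capitals mark matches to TGATGNAA or its reverse complement, the core to which ATF4 and C/EBP factors are known to bind in genes of the amino acid response.
Slc7a11: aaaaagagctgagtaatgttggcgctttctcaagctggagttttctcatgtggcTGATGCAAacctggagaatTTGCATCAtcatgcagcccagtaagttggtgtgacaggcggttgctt
The matches lie from -66 to -59 on the strand of the gene and from -47 to -40 on the opposite strand. At least 1 match was found in 3.97% of 32851 promoter windows of the same length (1304 windows), and 2 or more in 23 windows. Promoter windows were found for 6 of the 10 members, not for Slc7a5, Slc7a2, Slc38a1 or Slc1a5. Besides Slc7a11, Slc1a4 had 1 match across its start, from -4 to 4, and Slc6a14, Slc3a2, Slc7a1 and Slc38a2 had none. The motif TGACGTCA matched in none of the members' windows and in 1.79% of all. TGACNNNGC, found in 12.4% of all windows, had 1 match each in Slc7a1 and Slc38a2, and TATAAA, found in 13.6%, had 1 match in 1 of the 2 Slc7a1 windows. These are matches of letters, and no binding was measured.

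The other partners of Slc3a2 were read from the list of Slc3 and Slc7 genes. Slc7a8, a second system L light chain that exchanges neutral amino acids, rose from 1088, 920, 939 and 787 normalized counts at P5 to 3370, 3311, 3530 and 3241 at P12. The ages were far apart and the 4 pools of each age close together (log2 fold change 1.85, SE 0.09, adjusted p = 2.8e-08). Slc7a6 and Slc7a7, light chains of system y+L that release cationic amino acids against neutral ones, rose less, by 0.64 (SE 0.06, adjusted p = 6.6e-06) and 0.45 (SE 0.10, adjusted p = 0.0034) on the log2 scale. Slc7a7 shares 7.0% of its exonic bases with the antisense gene Oxa1l, which had 681 to 1194 counts, and the use of strand in the counting is not given in the sources used here. Of the 12 other Slc3 and Slc7 genes listed, 7 were tested, 4 rose and 2 fell (85.7% passed, beside 57.2% of all genes).

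The make-up of the light chains was compared per kilobase of exon, as a description with no test, since the group was put together after the values were seen. Of the summed normalized count per kilobase of Slc7a5, Slc7a6, Slc7a7, Slc7a8, Slc7a10 and Slc7a11, Slc7a8 took 21.6% ± 2.12 (SD, n = 4) at P5 and 48.4% ± 4.92 at P12. Slc7a5 took 29.3% ± 2.95 at P5 and 11.2% ± 2.17 at P12, and the ranges of both genes did not overlap between the ages. Slc7a6 held a similar share at both ages, 27.1% ± 0.685 and 26.1% ± 1.45. The sum itself was 862 ± 31.0 normalized counts per kilobase at P5 and 1398 ± 128 at P12. The share of Slc7a11 is counted on an annotated exon length of 13.9 kb, the sum of all its transcript forms, and would be larger on a shorter one.

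**Figure D2:**
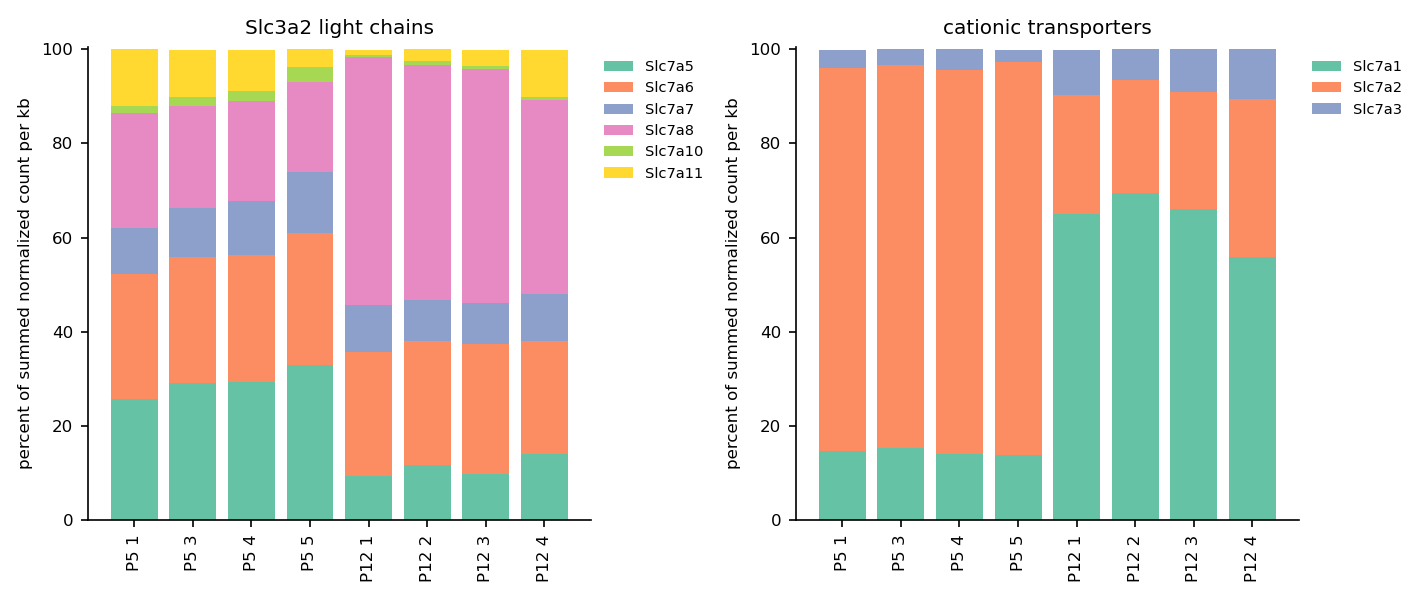
Share of the summed normalized count per kilobase (y axis, percent) held by each of 6 light chains of Slc3a2 (left) and by 3 cationic transporters (right) in each library (x axis). Slc7a8 grows from 19.1% to 24.3% of the light chains at P5 to 41.3% to 52.7% at P12, and Slc7a2 shrinks from 81.3% to 83.5% of the cationic transporters to 23.9% to 33.6%.

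The cationic amino acid transporters, which carry arginine, lysine and ornithine, changed places. Slc7a2 had 2098, 2057, 2200 and 2373 normalized counts at P5 and 194, 177, 171 and 224 at P12. It was low in every P12 library, with a log2 fold change of -3.51 (SE 0.09, adjusted p = 4.6e-10), and it had the largest fall of the 9 members tested. Slc7a2 lies on chromosome 8, at 40862396 to 40922308 on the forward strand, and shares 7.0% of its exonic bases with the antisense gene Gm26584, which had 0 to 3 counts. Slc7a1, the widely expressed carrier of the same substrates, had 480, 491, 476 and 500 normalized counts at P5 and 625, 651, 576 and 469 at P12. Only P12 replicate 4 lay below the P5 libraries, and the other P12 libraries lay above them. Its log2 fold change of 0.26 (SE 0.10, adjusted p = 0.041) was at the edge of the threshold and lost the call when any library other than P12 replicate 4 was left out (adjusted p between 0.064 and 0.13).

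Within libraries the log2 ratio of Slc7a1 to Slc7a2 went from -2.16 ± 0.08 (SD, n = 4) to 1.59 ± 0.36, a difference of 3.75 with no overlap (two-sided exact permutation p = 0.0286, adjusted 0.0572). Per kilobase, Slc7a2 held 82.0% ± 1.05 of the sum of Slc7a1, Slc7a2 and Slc7a3 at P5 and 26.9% ± 4.5 at P12, while the sum fell from 291 ± 15.2 to 78.2 ± 4.83. Messenger RNA of this group was therefore lower at P12 even though Slc7a1 was not. Slc7a1 is on chromosome 5, at 148327410 to 148399904 on the reverse strand.

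Slc38a1 and Slc38a2, which take up small neutral amino acids such as glutamine and alanine with sodium, showed no change that passed the test. Slc38a2 had 5334, 5239, 5716 and 6467 normalized counts at P5 and 5225, 5690, 5476 and 4420 at P12, and Slc38a1 had 320, 359, 471 and 402 at P5 and 350, 340, 376 and 304 at P12. Both genes overlapped between the ages, and both were lowest at P12 in replicate 4. The log2 fold changes were -0.13 (SE 0.09, adjusted p = 0.27) for Slc38a2 and -0.18 (SE 0.12, adjusted p = 0.22) for Slc38a1, and with scaling by total count 0.25 (adjusted p = 0.059) and 0.20 (adjusted p = 0.19). Their log2 ratio was -3.88 ± 0.20 at P5 and -3.92 ± 0.10 at P12 (exact permutation p = 0.743, adjusted 0.892). The genes lie near each other on chromosome 15, at 96571418 to 96642913 for Slc38a1 and 96687392 to 96699730 for Slc38a2, both on the reverse strand.

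Slc1a4 and Slc1a5 exchange small neutral amino acids, with serine and alanine as typical substrates of Slc1a4 and glutamine of Slc1a5. Slc1a4 had 266, 318, 297 and 322 normalized counts at P5 and 519, 465, 386 and 380 at P12. The ages did not overlap, and the log2 fold change was 0.54 (SE 0.12, adjusted p = 0.0019). Slc1a5 had 550, 533, 527 and 578 at P5 and 768, 741, 630 and 506 at P12. P12 replicate 4 alone lay below the P5 libraries, and the log2 fold change of 0.28 (SE 0.12) did not pass over all libraries (adjusted p = 0.064) but did without that library (0.38, adjusted p = 0.0017). The log2 ratio of Slc1a4 to Slc1a5 was higher in all P12 libraries (-0.59 ± 0.13) than in any at P5 (-0.87 ± 0.13; exact permutation p = 0.0286, adjusted 0.0572). Slc1a4 is on chromosome 11, at 20302180 to 20332713 on the reverse strand, and Slc1a5 on chromosome 7, at 16781340 to 16798274 on the forward strand.

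The levels of the members were set in order per kilobase of exon. At P5 the members ran from Slc3a2 (737 ± 60.4 normalized counts per kilobase, SD, n = 4) and Slc38a2 (644 ± 63.2), whose ranges overlapped, to Slc7a5 (252 ± 17.4) and Slc7a2 (239 ± 15.4), whose ranges also overlapped. Slc1a5 (131 ± 5.44) came next, then Slc1a4 (76.5 ± 6.48) and Slc7a11 (75.3 ± 32.7), not separated from each other, then Slc7a1 (42.2 ± 0.939), which lay within the range of Slc7a11, then Slc38a1 (22.5 ± 3.74), with Slc6a14 last (0.542 ± 0.679). At P12 Slc3a2 (1020 ± 82.6) and Slc38a2 (589 ± 62.9) still led, and Slc6a14 had moved to rank 3 of 10 (230 ± 136). Its range overlapped those of Slc1a5 (159 ± 28.7), Slc7a5 (158 ± 44.0), Slc1a4 (111 ± 17.0) and Slc7a11 (63.1 ± 64.1), so that its place among them is not fixed. Slc7a1 (50.3 ± 6.96) followed, and Slc7a2 (21 ± 2.58) and Slc38a1 (19.9 ± 1.73) were last and overlapped. Slc7a11 ranged so widely that it overlapped these as well. Without division by length Slc38a2 came before Slc3a2 at both ages, Slc7a11 moved from rank 7 to rank 4 at P5 and rank 3 at P12, and Slc6a14 moved to rank 4 at P12.

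The wider set of amino acid and peptide transporters was no more often changed than other genes. Of 58 further genes listed by family, 46 were tested, 15 rose, 10 fell and 21 did not pass, so that 54.3% of those tested passed, beside 57.2% of all genes. With scaling by total count 22 rose and 6 fell. Their median log2 fold change was 0.00, beside 0.01. The other 12 were not tested because of low counts, among them the renal carriers Slc7a9 and Slc6a18.

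The largest rises of this set were those of Slc15a1, Slc1a1 and Slc43a2. Slc15a1 had 16.7, 10.1, 10.5 and 1.06 normalized counts at P5 and 1204, 1398, 1502 and 2150 at P12. It was low in all P5 and high in all P12 libraries (log2 fold change 7.39, SE 0.33, adjusted p = 1.4e-08). Slc1a1, the sodium-coupled carrier of glutamate, aspartate and cysteine, had 9.0, 20.1, 14.5 and 28.6 normalized counts at P5 and 218, 274, 407 and 1095 at P12. The ages did not overlap, but P12 replicate 4 was 3.65 times the mean of the other P12 libraries, and the log2 fold change of 4.73 (SE 0.60, adjusted p = 4.7e-05) was 4.0 without it. Slc1a1 shares 31.9% of its exonic bases with the antisense gene 4430402I18Rik, which had 0 to 17 counts. That share is of 8257 bases in the annotation used for overlaps, while the deposited length of Slc1a1 is 6170 bases. Slc43a2, a facilitator of branched-chain and aromatic amino acids, rose from 375 to 424 up to 1503 to 1843 (log2 fold change 2.09, SE 0.08, adjusted p = 4.6e-09), the only 1 of 3 facilitators to pass (33.3%, beside 57.2% of all genes).

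**Figure D3:**
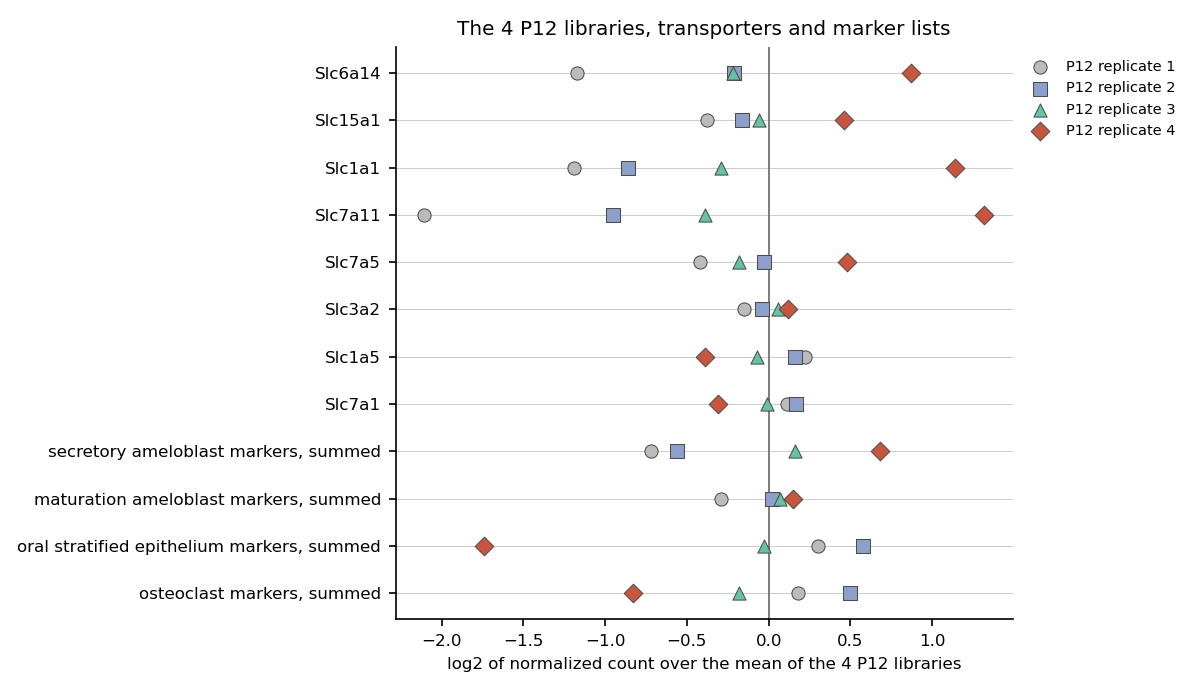
Values of 8 transporters, picked after their values were seen, and the summed counts of 4 marker lists in the 4 P12 libraries, as log2 of the normalized count over the mean of the 4 (x axis). Slc6a14, Slc15a1, Slc1a1, Slc7a11, Slc7a5 and Slc3a2 are highest in replicate 4, as are both ameloblast lists, while the oral epithelium list, the osteoclast list, Slc1a5 and Slc7a1 are lowest there.

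In P12 replicate 4, 5 of the 10 members had their highest P12 value and the other 5, Slc7a1, Slc38a1, Slc38a2, Slc1a5 and Slc1a4, their lowest. Among 8 transporters picked after their values were seen, Slc6a14, Slc15a1, Slc1a1, Slc7a11, Slc7a5 and Slc3a2 were each lowest in replicate 1 and highest in replicate 4. Replicate 4 was 2.54, 1.57, 3.65, 4.94, 1.60 and 1.12 times the mean of the other libraries, in that order. Both summed ameloblast marker lists were also lowest in replicate 1 and highest in replicate 4, although Amelx and Enam were lowest, and Odam highest, in replicate 2. The summed skeletal muscle list shared the pattern of the sums through Myh4 alone. Slc1a5 and Slc7a1 were at 0.710 and 0.760 times the mean of the others in replicate 4, where the oral epithelium list was lowest too. The osteoclast, mesenchyme, macrophage and erythroid sums were likewise lowest in that library, while the endothelial sum was highest there. With 33.4% of all genes tested highest in P12 replicate 4 and 34.3% lowest there, this describes 1 pool, and the part of tissue make-up was not tested.

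Falls in the wider set were led, among well expressed genes, by Slc38a3, a sodium-coupled glutamine carrier, which went from 1726, 1830, 2088 and 2566 normalized counts at P5 to 435, 386, 415 and 299 at P12 (log2 fold change -2.42, SE 0.14, adjusted p = 1.2e-07). No library of one age reached the range of the other. Slc36a2, a proton-coupled carrier of glycine, proline and alanine, fell by 1.27 on the log2 scale (SE 0.12, adjusted p = 6e-06). Of the 9 other Slc38 genes, 8 were tested, 4 rose and 1 fell (62.5% passed, beside 57.2% of all genes); the rises included Slc38a7 (0.56, adjusted p = 0.00023) and Slc38a11 (0.80, adjusted p = 0.00078). Of the 10 other Slc6 genes, 7 were tested, 1 rose and 1 fell (28.6% passed, beside 57.2%). The riser was Slc6a6, the taurine transporter, at 3666 to 3877 normalized counts at P5 and 4393 to 5477 at P12 (log2 fold change 0.37, SE 0.07, adjusted p = 0.0013). Of the 5 other Slc1 genes, 4 were tested, and Slc1a1 rose while Slc1a6, at 26.4 or fewer normalized counts, fell, so that 2 of 4 passed, beside 57.2% of all genes.

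Of the 10 proton-coupled and lysosomal carriers, some of which act at the cell surface, 9 were tested, 4 rose and 1 fell (55.6% passed, beside 57.2% of all genes), and besides Slc15a1 the rises included Ctns, which exports cystine from lysosomes (575 to 639 normalized counts at P5, 862 to 1147 at P12, log2 fold change 0.70, adjusted p = 6e-05), and the histidine and peptide transporter Slc15a4 (0.32, adjusted p = 0.015). The call of Slc15a4 was lost without P12 replicate 1 and over the 6 libraries that share a replicate number, with or without a block. Of the 9 mitochondrial amino acid carriers, 8 were tested, 0 rose, 4 fell and 4 did not pass, so that 4 of 8 passed, beside 57.2% of all genes. The largest of these falls was that of Slc25a13, an aspartate/glutamate carrier (-0.78, SE 0.11, adjusted p = 0.00011). Slc25a38 (-0.34) and Slc25a44 (-0.21), carriers of glycine and of branched-chain amino acids, fell by amounts that turned to 0.04 and 0.16 with scaling by total count. Slc25a38 also lost its call without P5 replicate 4 and over the 6 libraries without a block. Slc25a44 lost its call with no filter, over the 6 libraries with or without a block, without P12 replicate 2 and without both distant libraries.

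**Figure D4:**
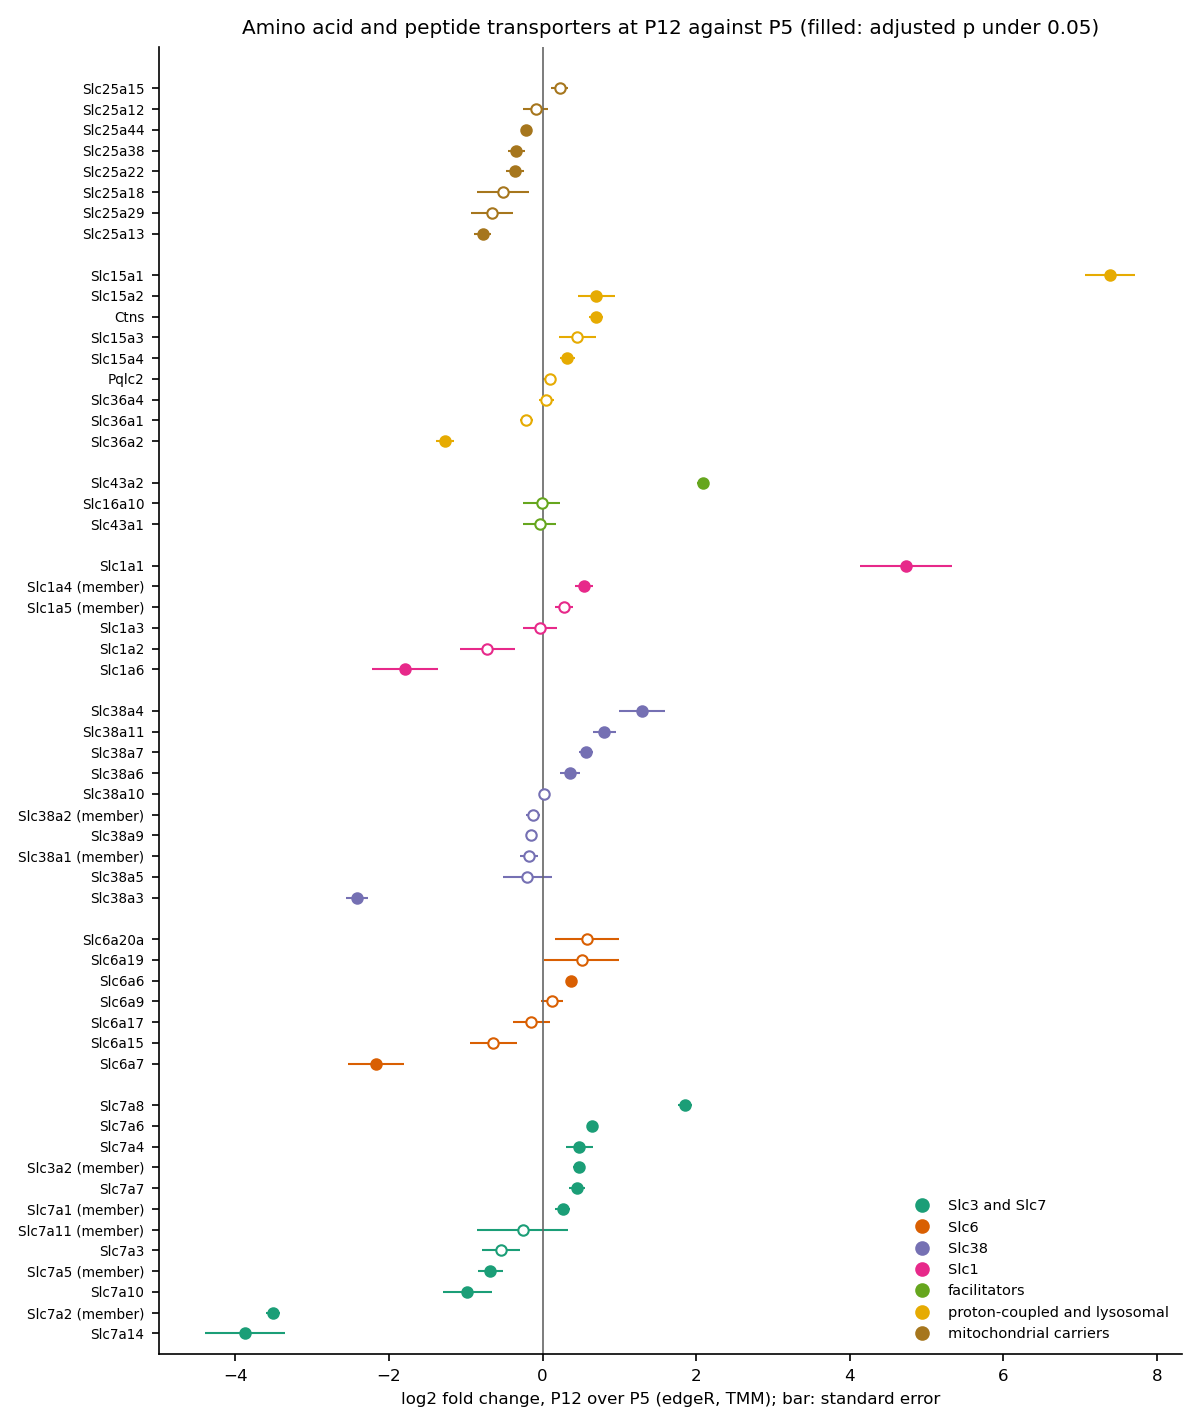
Log2 fold change from P5 to P12 (x axis, edgeR with TMM) of each tested transporter other than Slc6a14, grouped by family, with its standard error as a bar. Filled points have an adjusted p under 0.05. Slc15a1 at 7.39 and Slc1a1 at 4.73 lie farthest to the right and Slc7a14 at -3.87 and Slc7a2 at -3.51 farthest to the left. Slc7a14 was near the floor at P12, with 0 to 3.67 normalized counts. Of the mitochondrial carriers 4 of 8 are filled, beside 57.2% of all genes, and these lie below 0 (under total count scaling Slc25a38 and Slc25a44 lie above 0).

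Cells that lack amino acids are known to activate the kinase Eif2ak4 (GCN2) and the factor Atf4, which raises transporters such as Slc7a11 together with enzymes of amino acid synthesis. Of 25 genes listed for this response, 24 were tested, 9 rose, 7 fell and 8 did not pass, with a median log2 fold change of 0.07. That is 66.7% passed, beside 57.2% of all genes, and with scaling by total count 16 rose and 6 fell. The mRNA of Atf4 itself did not pass (2330 to 2513 normalized counts at P5, 2299 to 2646 at P12, log2 fold change 0.03, SE 0.06, adjusted p = 0.70), and Atf4 protein and its activity were not measured. Asns, the asparagine synthetase gene, did not pass either (-0.06, SE 0.07, adjusted p = 0.48). Genes of the list moved both ways under both scalings, and the balance of rises and falls depended on the scaling.

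Among the rises were Stc2, a secreted glycoprotein gene, with 42.2 to 81.0 normalized counts at P5 and 534 to 727 at P12 (log2 fold change 3.25, SE 0.18, adjusted p = 6.2e-08), and Eif4ebp1, which holds back translation (1.21, adjusted p = 1.7e-05). Shmt2, a mitochondrial enzyme of serine and glycine metabolism (1.01, adjusted p = 3.3e-05), and Cebpb (0.90, adjusted p = 0.00035) also rose. Cebpb shares 20.7% of its exonic bases with Tmem189 on the opposite strand, which had 222 to 624 counts. The falls included both listed enzymes of proline synthesis. Aldh18a1, which makes its precursor, went from 2938, 2909, 3205 and 3207 at P5 to 878, 737, 566 and 499 at P12, with the ages far apart (log2 fold change -2.19, SE 0.15, adjusted p = 3.7e-07), and Pycr1, which makes proline, fell by 0.91 (SE 0.10, adjusted p = 1.4e-05). Chac1, which breaks down glutathione, fell by 2.14 (SE 0.11, adjusted p = 3.6e-08), and Vldlr by 0.99 (SE 0.07, adjusted p = 4.7e-07).

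The TGATGNAA core of the Slc7a11 promoter was also looked for in the windows of these genes. It was present in 8 of the 23 response genes with a window, Asns, Trib3, Chac1, Atf3, Nupr1, Pycr1, Vldlr and Fgf21, beside 3.97% of all windows. The latter share counts windows, not genes, and some genes have more than 1. The core is known from genes of this response, so its frequency among them is no independent result. Of these 8, Trib3, Atf3 and Nupr1 rose, Chac1, Pycr1, Vldlr and Fgf21 fell and Asns did not pass. It was present in 1 of 44 further transporters, Slc7a7, in 5 of 12 tRNA synthetases and in 1 of 20 sensing genes, Lamtor4. Genes that hold the core thus moved in both directions.

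The 20 cytoplasmic tRNA synthetases, which load amino acids onto tRNA, were all tested. Of these 6 rose, 5 fell and 9 did not pass, so that 55.0% passed, beside 57.2% of all genes, with a median of 0.08. The extremes were Dars, with a log2 fold change of 0.65 (SE 0.06, adjusted p = 6.6e-06), and Eprs, which joins glutamate and proline to their tRNAs and went from 4335 to 4575 normalized counts at P5 to 2934 to 3120 at P12 (-0.54, SE 0.06, adjusted p = 9.4e-06). Rars rose by 0.36 (adjusted p = 0.006) and Yars fell by 0.39 (adjusted p = 0.00093). With scaling by total count 16 of the 20 rose and 1 fell, and Yars lost its call. Rars lost its call with a replicate block.

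Of 21 genes that sense amino acids for the mTOR kinase, all were tested, 5 rose, 5 fell and 11 did not pass, so that 47.6% passed, beside 57.2% of all genes, with a median of 0.10. The clearest change was in the arginine sensor Castor1, which had 861, 764, 845 and 840 normalized counts at P5 and 195, 207, 234 and 269 at P12. It was low in every P12 library (log2 fold change -1.88, SE 0.10, adjusted p = 5.7e-08), as was the arginine carrier Slc7a2, while its paralog Castor2 rose by 0.50 (SE 0.10, adjusted p = 0.0011). Fnip1 rose by 0.55 (adjusted p = 2.6e-05), and Nprl3 and Depdc5, subunits of a complex that restrains mTOR when amino acids are scarce, fell by 0.42 (adjusted p = 0.00022) and 0.32 (adjusted p = 0.0032). Nprl3 shares 17.7% of its exonic bases with the antisense gene Mpg. The direction of the small changes depends on scaling, since with total counts 13 of the 21 rose and 1 fell, Nprl3 lost its call and Depdc5 turned to 0.05.

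**Figure D5:**
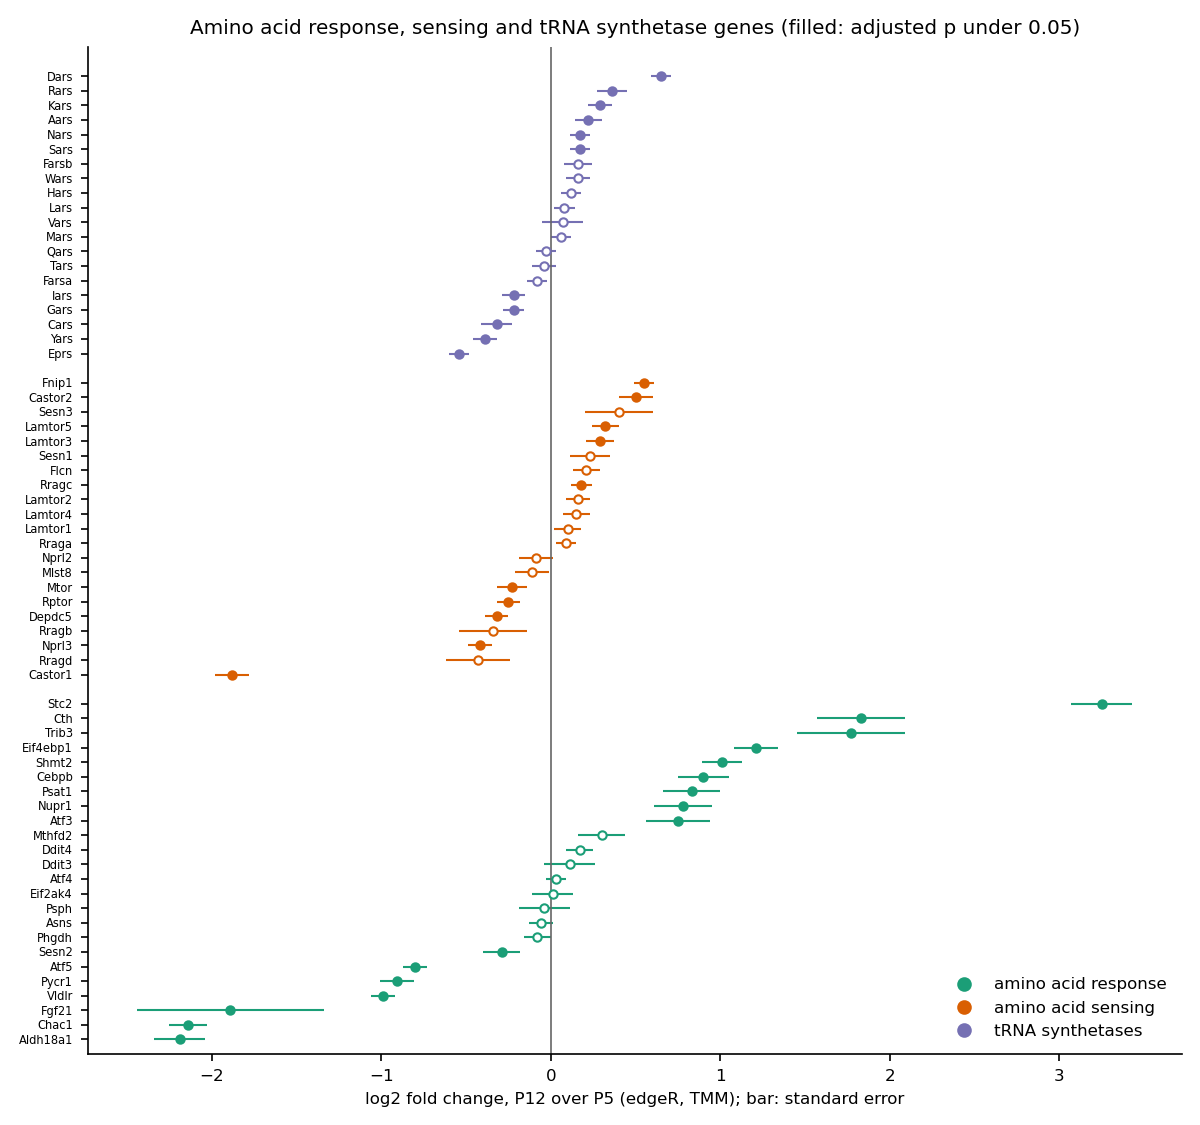
Log2 fold change from P5 to P12 (x axis, edgeR with TMM) of the tested genes of the amino acid response, amino acid sensing and the tRNA synthetases, with standard errors as bars. Filled points have an adjusted p under 0.05. The response genes spread from -2.19 (Aldh18a1) to 3.25 (Stc2), the synthetases lie within -0.54 and 0.65, and Castor1 at -1.88 lies apart from the other sensing genes; small changes move to the right by about the shift of the median, to 0.38, when total counts set the scale.

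Markers of other tissues were read against the 57.2% of all genes that passed. All 5 endothelial markers rose (sums of 2278 to 2721 at P5 and 4397 to 4687 at P12), as did all 8 oral epithelium markers (917 to 1729, then 12399 to 61980) and all 3 osteoclast markers (1020 to 1649, then 3127 to 7854). Per kilobase, Cdh5, Krt6a and Ctsk led these lists at both ages. The counts of the macrophage, erythroid and mesenchyme lists are near or below that share and by themselves show no change of those tissues. Of the macrophage and leukocyte markers 3 of 5 rose (769 to 1079, then 1203 to 1559, with Csf1r leading per kilobase at P5 and Cd68 at P12). Of the erythroid markers 2 of 5 fell (18758 to 36558, then 17987 to 21593, with Hbb-bs leading at both ages), and of the skeletal muscle markers 4 of 5 fell and Myh4 rose (sums of 743 to 1243, then 677 to 1451, with Acta1 leading at both ages). Of the mesenchyme, odontoblast and bone markers 1 of 6 rose and 2 fell. The riser was Col3a1, a small part of that sum, at 4109 to 4672 normalized counts at P5 and 32390 to 86935 at P12. Its log2 fold change was 3.64 (SE 0.29, adjusted p = 1.4e-06). The part of these tissues in the transporter changes was not tested.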

How the data were processed

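Enamel organ RNA of P5 and P12 mouse molars was sequenced by the authors, who deposited a count of reads for each gene, as whole numbers and not normalized. The submitters' processing notes name CASAVA and the build mm39, but 53548 of the 54532 gene coordinates (98.2%) equal those of GENCODE M21 for GRCm38, which is the build printed here. The aligner, the counting program and its use of strand are not given in the sources used here. The labels name TRIzol and a Zymo kit. Each column was matched to its library by title. Chi-square over its degrees of freedom was 4.76 to 74.55 in the 12 comparisons of libraries of 1 age, so none is a duplicate.

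The test was that of edgeR 4.0.16, run in R 4.3.3, with filterByExpr, TMM, glmQLFit and glmQLFTest and age alone in the model. Benjamini-Hochberg adjustment covered 16440 genes at a threshold of 0.05; SE is the log2 fold change over the square root of F. Ratios, exact tests and figures used Python 3.11.15 with numpy 2.4.6, pandas 2.3.3, scipy 1.17.1 and matplotlib 3.10.9. Normalized counts were scaled to the mean effective size, 19006280. Log2 ratios used counts plus a pseudocount of 1. Exon overlap came from GENCODE M21, and promoters, 250 bases before to 50 after a start, from RefSeq GRCm38.p6. Motifs were chosen from general knowledge, and the first promoter matches were seen before the text was written. The symbol Ddit3 names more than 1 gene identifier, and the protein-coding one with most counts was used. Slc66a1 is listed under its older symbol Pqlc2. The members and lists were chosen with earlier results of these data known.

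Genes named from each list were up to 4 largest rises and 4 largest falls among those that passed the test, did not overlap between ages and averaged 100 or more normalized counts. Further names were chosen after their values were seen: low-count genes, Atf4, Asns, Slc1a6, Slc7a14 and those with the motif. Alternatives were DESeq2 1.42.0, which the study's methods name, limma-voom (limma 3.58.1), other scalings, other filters on low counts, each library left out, a replicate block over 6 libraries, other pseudocounts and levels not divided by length. Intervals and floors cover counting error only. The result of 1 further marker list is not reported.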

Additional observations from a re-analysis of the deposited data

Results flagged for a closer look

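For 50 genes, the 10 members and the 40 named from the lists, the 4 libraries of each age were searched for a value far from the others, 100 groups in all. With Dixon's 95% limit for the gap over the range, chance alone gives about 5. The search found 1, Slc25a44 in P5 replicate 5, at 776.9 normalized counts, against 667 to 678 in the other P5 libraries (gap 0.906 of the range). Without that library its log2 fold change was -0.16, against -0.21 with it. Slc7a11 in P12 replicate 4 and Slc6a14 in P12 replicate 4 did not pass this limit.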

How the results depend on the processing

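Of 718 values for the 40 genes named from the lists, under 18 alternatives, 690 kept direction and side of the threshold, 22 lost the call and 6 reversed. The calls lost were of Slc15a4, Slc25a38, Slc25a44, Rars, Aars, Yars, Iars, Lamtor5, Nprl3 and Rptor. Scaling by total count moved the calls over all genes most: 8885 genes were higher and 2330 lower, listed transporters 22 higher and 6 lower, response genes 16 higher and 6 lower, synthetases 16 higher and 1 lower, and sensing genes 13 higher and 1 lower. Under it Slc7a5 (-0.31) lost its call, Slc1a5 (0.65) gained one, and Slc7a11 (0.08), Slc38a1 (0.20), Slc38a2 (0.25), Slc25a38 (0.04), Slc25a44 (0.16), Gars (0.16), Iars (0.16), Depdc5 (0.05) and Rptor (0.12) turned positive. The cause of this shift was not tested. Slc7a1 (0.25) lost its call with limma-voom, and Slc1a5 (0.30) gained one with no filter.

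Replicate numbers 1, 3 and 4 occur at both ages, but same-numbered libraries did not correlate (0.043, 0.003 and -0.036). The numbers were therefore not treated as pairs, although such correlations cannot exclude a pairing. Over these 6 libraries a replicate block gave 7710 calls of 16399 genes, against 8117 without it, with 2 synthetases and 3 sensing genes called higher and Slc7a1 at 0.20, not called. Without the block Slc7a1 was 0.21, not called, and listed transporters called lower numbered 6.

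With any single library removed there were 3 to 6 synthetases called higher, the Slc6a14 ratio was 313.1 to 978.2, and log2 fold changes were -1.26 to 0.07 for Slc7a11, 0.20 to 0.34 for Slc7a1, 0.19 to 0.38 for Slc1a5 and, for Slc38a2, -0.17 to -0.06. The differences of the log2 ratios were -1.31 to -1.09 for Slc7a5/Slc3a2, -1.69 to -0.64 for Slc7a11/Slc3a2, -0.46 to 0.38 for Slc7a5/Slc7a11, 3.66 to 3.93 for Slc7a1/Slc7a2, -0.10 to 0.06 for Slc38a1/Slc38a2 and 0.22 to 0.32 for Slc1a4/Slc1a5. Without both P5 replicate 5 and P12 replicate 4, chosen after seeing the data, 7 synthetases were called higher, the Slc6a14 ratio was 270.9, Slc7a11 was -1.52, Slc7a1 0.36, Slc38a2 0.01 and Slc1a5 0.41, and the ratios Slc7a11/Slc3a2 and Slc7a5/Slc7a11 were -2.03 and 0.81. The causes were not tested.

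The libraries are pools of whole enamel organs with other tissues, so levels per cell were not measured. Messenger RNA was measured and neither transporter protein nor amino acid uptake was. Small changes depend on the scaling. Genes were not chosen blind to the data. With 4 pools per age, single pools decide the direction of Slc7a11 and the calls of Slc7a1 and Slc1a5. Strand use in the counting is not known.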
